A study of Mus musculus with 4 samples.

Results

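The constant genes of the T cell receptor (TCR) gamma and delta chains, Tcrg-C1, Tcrg-C2 and Trdc, are described here across 4 libraries of mouse T cells. They are 3 of the 16338 gene rows in each deposited table. They were chosen by name and selected on the large difference of the gamma constant genes between the receptors in these same data, so that difference is given as a description with no test. Tcrg-C4, which lies in the same locus, is given beside them.

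RNA was sequenced from T cells that carried the TRP1high or the TRP1low TCR and that had been stimulated for 48 h by B cells loaded with the K8 or the M9 peptide, then sorted away from those B cells. There was a single library for each of the 4 combinations and hence no replicate of any value. TRP1high and TRP1low are known, from background and not from the labels, as transnuclear mouse lines, each derived from the nucleus of a single CD8 T cell specific for the melanocyte protein TRP1. The TCR therefore cannot be told apart from the line. Strain background, age and the number of animals behind a library are not stated in the labels. The libraries held 29627525 to 41535089 estimated reads, and the lowest total was that of TRP1low with K8. Trbv13-3 held 84.8% and 89.9% of the Trbv reads in TRP1high and Trbv12-1 held 99.6% and 99.9% in TRP1low (K8, then M9). Cd8a and Cd8b1, the chains of the CD8 coreceptor, stood at log2 14.2 to 15.1 in every library, against log2 0 to 4.73 for Cd4.

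T cells carry either an alpha beta or a gamma delta receptor. The gamma locus holds several clusters, each with its own joining (J) and constant (C) gene, and each is used with its own variable (V) genes: in the naming used here Tcrg-V4 joins to Trgj1 and Tcrg-C1, Trgv2 to Trgj2 and Tcrg-C2, and Tcrg-V1 to Trgj4 and Tcrg-C4. The delta genes lie inside the alpha locus between the V alpha and J alpha genes, and joining of a V alpha to a J alpha gene removes the stretch between them from that chromosome. Constant genes encode the membrane-proximal domain, the hinge, the transmembrane stretch and the short tail of the chain. Transcripts of constant and joining genes can also start within the locus without a joined V gene.

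In the GENCODE M21 annotation of mm10, Tcrg-C1 (ENSMUSG00000076749.2) lies on chromosome 13 from 19214103 to 19217024 on the plus strand, Tcrg-C2 (ENSMUSG00000076752.2) from 19304649 to 19307551 on the minus strand, and Tcrg-C4 (ENSMUSG00000076757.9) from 19344558 to 19352756 on the plus strand. Trdc (ENSMUSG00000104876.1) lies on chromosome 14 from 54142851 to 54148868, after the last Trav gene (end 53977678) and before the first Traj gene (start 54155005).

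Tcrg-C1 and Tcrg-C2 are near-copies. Over all 330 bases of exon 1, the first coding exon, Tcrg-C1 and Tcrg-C2 differed at 9 positions (97.3% identity), and Tcrg-C1 and Tcrg-C4 at 59 (82.1%). The genes also differ in the exon or exons after it, which encode the hinge and are shown because they are the clearest landmark of each gene: 1 exon of 45 bases in Tcrg-C1 (chr13:19215864-19215908, plus), 1 of 30 bases in Tcrg-C2 (chr13:19305769-19305798, minus), and 2 exons of 54 and 45 bases in Tcrg-C4 (chr13:19349536-19349589 and chr13:19350330-19350374, plus).
Tcrg-C1 exon 2: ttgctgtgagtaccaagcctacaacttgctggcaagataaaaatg
Tcrg-C2 exon 2: ttgctacaacttgctggcaagataaaaatg
Tcrg-C4 exon 2: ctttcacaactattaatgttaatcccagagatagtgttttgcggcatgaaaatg
Tcrg-C4 exon 3: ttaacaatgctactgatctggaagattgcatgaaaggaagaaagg

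Of all stretches of 31 bases in the Tcrg-C1 transcript, 35.8% also occur in Tcrg-C2 and 29.5% in Tcrg-C3, a further near-copy that is not analysed here. How the authors' counting divided shared reads is not given in the sources used here, so the split of reads between Tcrg-C1 and Tcrg-C2 is uncertain. Tcrg-C4 shares 0 such stretches with Tcrg-C1, Tcrg-C2, Tcrg-C3 or Trdc. Trdc shares 0 with the gamma genes, and the start of its first coding exon (chr14:54142851-54142970, plus strand of mm10) is shown to identify it.
Trdc: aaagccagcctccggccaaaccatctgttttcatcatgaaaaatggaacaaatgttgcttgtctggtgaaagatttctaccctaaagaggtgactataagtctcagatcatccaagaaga

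The gamma constant genes were high in TRP1high, most of all with K8, and near the limit of counting in TRP1low, while Trdc was plainly present in all 4 libraries and somewhat higher in TRP1low. All levels are log2(normalized counts + 1), where the normalized counts are the authors' and the added 1 was read from the values. Tcrg-C1 stood at log2 9.83 in TRP1high with K8, 6.73 in TRP1high with M9, 3.40 in TRP1low with K8 and 1.63 in TRP1low with M9, which is 910, 106, 7 and 2 estimated reads. In the same order Tcrg-C2 stood at log2 9.003, 6.05, 4.004 and 2.05, which is 513, 66, 11 and 3 reads. Both genes thus had 1 order of libraries, with both TRP1high libraries above both TRP1low libraries and K8 above M9 within each receptor.

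Tcrg-C4 stood at log2 10.50, 7.83, 2.35 and 1.63 (1449, 229, 3 and 2 reads), and its TRP1low values were within the floor of 3 reads, below which a difference was not read. Trdc stood at log2 9.40, 8.86, 10.20 and 9.64 (677, 469, 862 and 758 reads). Its order was TRP1low with K8, TRP1low with M9, TRP1high with K8 and TRP1high with M9.

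**Figure D1:**
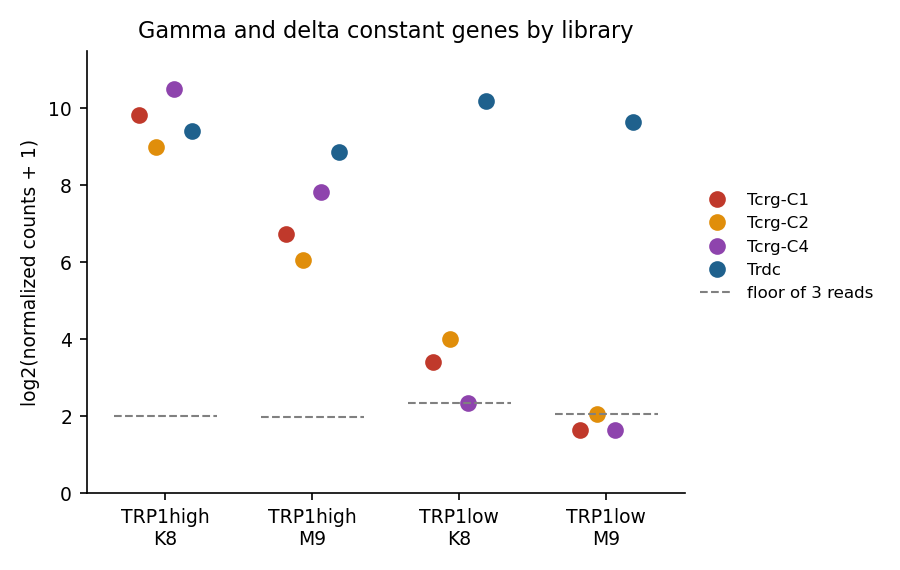
Level of each constant gene in each of the 4 libraries, as log2(normalized counts + 1), 1 point per gene and library. Dashed lines mark the level of 3 reads in each library. The gamma genes lie between 6.05 and 10.50 in TRP1high and between 1.63 and 4.004 in TRP1low, and Trdc lies between 8.86 and 10.20 throughout.

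Per kilobase of annotated transcript, the order among genes in TRP1high with K8 was Tcrg-C4 (1468 normalized counts per kb), Tcrg-C1 (983), Tcrg-C2 (560.2) and Trdc (174.8). In TRP1high with M9 the gamma genes kept that order at 230.0, 113.5 and 71.4 per kb, and Trdc stood at 120.1, between Tcrg-C4 and Tcrg-C1. In TRP1low the order was led by Trdc, at 305.0 per kb with K8 and 205.7 with M9, and the gamma genes stood between 2.13 and 16.5 per kb. The Trdc transcript is 3865 bases long, of which 88.2% is untranslated, and the level over its coding part alone was not measured.

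The receptor comparison describes TRP1high against TRP1low with the same peptide. With K8, normalized counts in TRP1high were 94.9-fold those in TRP1low for Tcrg-C1 (95% exact counting interval 45.9 to 237), 34.0-fold for Tcrg-C2 (18.9 to 68.6) and 352-fold for Tcrg-C4 (120.4 to 1711). With M9 each ratio rests on only 2 or 3 reads in TRP1low: the log2 ratio of Tcrg-C1 was 5.64 (fold interval 13.5 to 418), and Tcrg-C2 was 20.8-fold (6.80 to 103) and Tcrg-C4 108-fold (29.6 to 897) higher in TRP1high. Trdc went the other way: it was 1.74-fold lower in TRP1high with K8 (1.58 to 1.93) and 1.71-fold lower with M9 (1.52 to 1.93). These intervals cover the counting of reads in single libraries and not the spread between cultures.

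On the log2(value + 1) scale, the receptor differences were 6.43 and 5.10 for Tcrg-C1 (K8, then M9), 4.999 and 3.999 for Tcrg-C2, and -0.80 and -0.78 for Trdc, against a median of -0.0017 and -0.033 over all 16100 tested genes. By size of difference Tcrg-C1 was gene 14 and gene 22 of 16100 from the top, Tcrg-C2 was gene 57 and gene 63, and Tcrg-C4 was gene 4 and gene 14. A call here is a difference of 2-fold or more between 2 libraries in a gene that reached 10 normalized counts in either. Over all genes, 10.6% were called higher in TRP1high with K8 and 8.35% lower. With M9 the shares were 7.37% higher and 5.58% lower, and with both peptides 3.24% higher and 2.29% lower. Tcrg-C1, Tcrg-C2 and Tcrg-C4 were called higher with both peptides, which for the members Tcrg-C1 and Tcrg-C2 restates how they were chosen. Trdc was not called. Relative to the CD3 genes the Trdc difference with M9 was -1.30, past 2-fold, so the absence of that call depends on the scaling. Comparisons with K8 and with M9 share no library.

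In bulk RNA, fewer cells of a type and less RNA per cell cannot be told apart. Summed over Tcrg-C1, Tcrg-C2 and Tcrg-C4, gamma constant transcript came to 2867, 397, 28.7 and 7.34 normalized counts in TRP1high with K8 and M9 and TRP1low with K8 and M9. Set against Cd3e, the CD3 epsilon chain that every T cell carries, the sum was 424.5, 38.1, 7.43 and 1.42 per 1000 normalized counts of Cd3e. Trdc came to 100.1, 44.5, 304.9 and 153.5 per 1000 of Cd3e in the same order. These ratios are not scaled for gene length and compare libraries only. Cd3e itself was 1.75-fold (1.67 to 1.83) and 2.01-fold (1.94 to 2.08) higher in TRP1high with K8 and M9, and 1.54-fold higher with M9 in TRP1high, so ratios to Cd3e lower the gamma difference and widen the Trdc difference between the receptors by those factors.

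The peptide comparison asks whether these transcripts differed between stimulation by M9 and by K8. The genes were not chosen on it, but it uses the same libraries as the receptor difference they were chosen on. TRP1high with K8, where Tcrg-C1 and Tcrg-C2 were highest, enters both. Their peptide differences and the limma fit below are therefore not independent of the choice. All 3 members were lower with M9 than with K8 in both receptors. In TRP1high, Tcrg-C1 was 8.66-fold lower with M9 (counting interval 7.08 to 10.7) and Tcrg-C2 was 7.84-fold lower (6.06 to 10.3). Tcrg-C4 was 6.38-fold lower (5.55 to 7.37), so all 3 gamma constant genes were lower. In TRP1low the ratios rest on few reads: Tcrg-C1 was 4.56-fold lower, with an interval of 0.869 to 45.0 that includes no difference, and Tcrg-C2 was 4.78-fold lower (1.26 to 26.7). Trdc was 1.46-fold lower with M9 in TRP1high (1.29 to 1.64) and 1.48-fold lower in TRP1low (1.34 to 1.64).

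Over both receptors, an additive limma model of receptor and peptide across all 16100 genes gave a log2 difference of -2.44 for Tcrg-C1 (SE 0.47), -2.45 for Tcrg-C2 (SE 0.37) and -0.55 for Trdc (SE 0.19). The limma p-values with Benjamini-Hochberg adjustment over all genes were 0.58, 0.58 and 0.61, so none passed 0.05. The model has 1 residual degree of freedom. Its standard errors combine the disagreement between receptors for that gene with a prior drawn from all genes, and they do not measure the spread between cultures. By that limma test 0 of 16100 genes (0%) passed, and 1342 genes (8.34%) had an unadjusted limma p under 0.05. Between 2 libraries, 4.73% of genes were called lower with M9 in TRP1high and 5.14% higher. In TRP1low 7.43% were called lower and 7.67% higher. In both receptors 1.57% were called lower and 1.58% higher. Of the 3 members, Tcrg-C1 and Tcrg-C2 were called lower in TRP1high, Tcrg-C2 alone in TRP1low, and Trdc in neither. Relative to the CD3 genes the Trdc peptide difference in TRP1high was -1.11, past 2-fold. Tcrg-C1 in TRP1low had fewer than 10 normalized counts in each library.

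The peptide difference of Tcrg-C1 was -3.10 in TRP1high and -1.77 in TRP1low, and that of Tcrg-C2 was -2.95 and -1.95, on the log2(value + 1) scale. For Trdc it was -0.54 and -0.57, against a median over all genes of -0.02 and 0.02. Whether the peptide difference differed between the receptors could not be tested with 1 library a group.

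**Figure D2:**
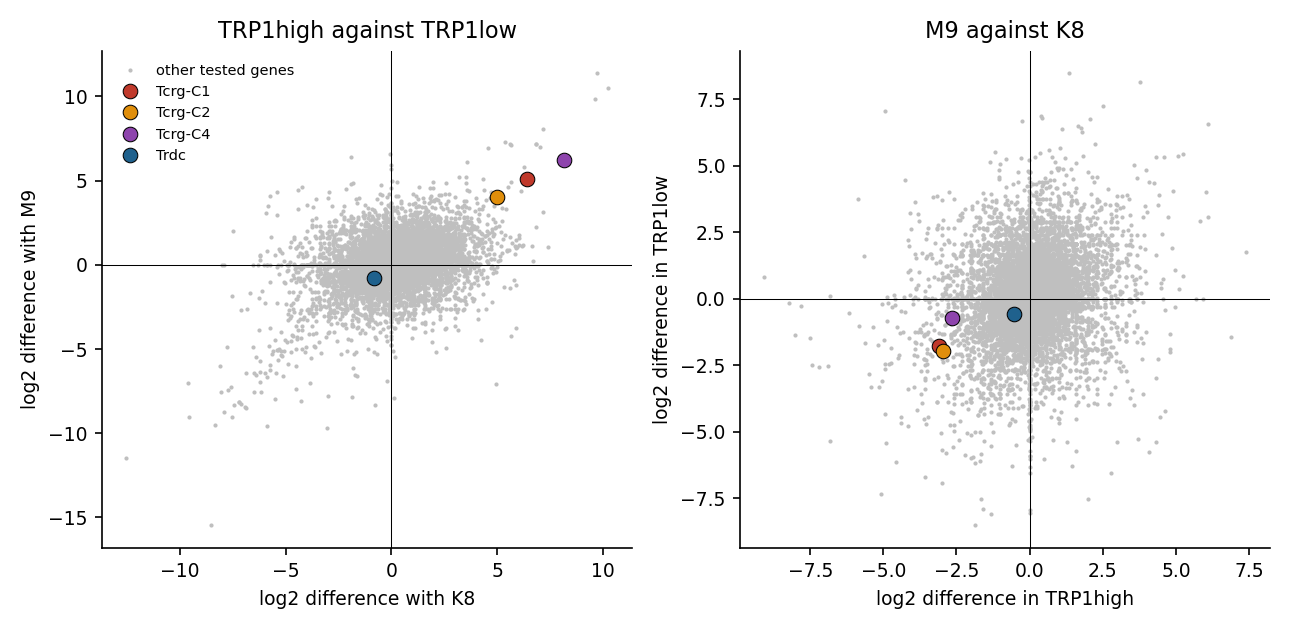
Log2 differences of all 16100 tested genes (grey) and of the 4 constant genes (coloured). The left panel plots TRP1high minus TRP1low with K8 (x axis) and with M9 (y axis), and the right panel plots M9 minus K8 in TRP1high (x axis) and in TRP1low (y axis). The gamma genes lie at the upper right edge on the left and left of centre on the right, and Trdc lies within the bulk of genes in both.

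Other genes of the gamma locus were measured in 6 further rows. The joining genes had the pattern of the constant genes at far fewer reads. In the library order used above, Trgj1 had 17, 3, 0 and 0 reads, Trgj2 had 26, 5, 1 and 0, and Trgj4 had 31, 4, 0 and 1. With K8, Trgj4 and Trgj1 were higher in TRP1high against 0 reads in TRP1low, with exact lower limits of 5.78-fold and 3.01-fold. Trgj2 was 19.0-fold higher (3.12 to 778). The variable genes were close to 0 in every library: Tcrg-V1 had 3, 0, 0 and 0 reads, Tcrg-V4 had 2, 0, 1 and 0, and Trgv2 had 3, 0, 1 and 1. Only 3 of the 7 annotated gamma V genes had a row, and the other 4 are not analysed here.

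The high constant gene transcript of TRP1high stood beside almost no transcript of the 3 measured V genes. The 8 gamma V reads in TRP1high with K8 stood beside 2872 gamma constant reads, or 0.279 per 100 (exact interval 0.1201 to 0.550), and in TRP1high with M9 the 0 V reads stood beside 401, where the exact upper limit is 0.924 per 100 and 3 reads would be 0.748 per 100. Per kb, V genes of the gamma chain stood at 0.624% of the constant genes in TRP1high with K8. In the same library the 50 measured Trav genes stood at 42.9% of Trac and the 9 measured Trbv genes at 55.3% of Trbc1 and Trbc2. Across all libraries the alpha ratio ran from 39.3% to 64.4% and the beta ratio from 39.2% to 55.3%. In TRP1low the gamma ratio was 19.4% and 27.2%, on 2 and 1 V reads, which is too few to read.

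**Figure D3:**
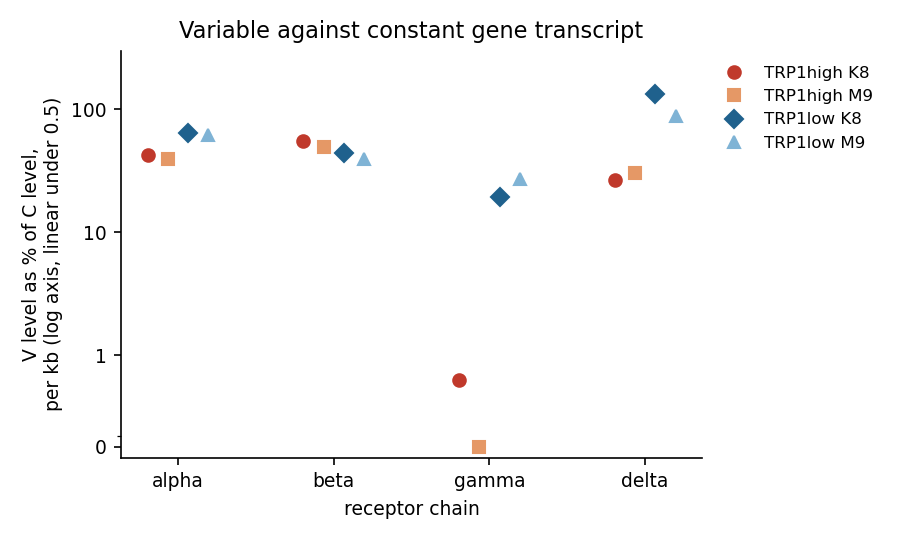
Summed level of variable genes as a percentage of the summed level of constant genes of the same chain, both per kb of annotated transcript, in each library (log axis, linear under 0.5). Alpha and beta values lie between 39.2% and 64.4%, and the gamma values of TRP1high are 0.624% with K8 and 0 with M9. The delta values use the whole annotated Trdc transcript, of which 88.2% is untranslated.

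Among the delta genes, Trdv1, Trdv2-2 and Trdj1 were higher in TRP1low, and with K8 by more than Trdc itself. With M9 the counting intervals of Trdv2-2 and Trdj1 included the 1.71-fold of Trdc. Trdv1 had 0 reads in both TRP1high libraries and 40 and 26 in TRP1low with K8 and M9. The exact lower limits of its ratio of TRP1low to TRP1high were 14.2-fold and 6.95-fold. In the library order used above, Trdv2-2 had 15, 12, 47 and 27 reads and was 4.29-fold (2.36 to 8.27) and 2.38-fold (1.17 to 5.17) higher in TRP1low. Trdj1 had 4, 4, 38 and 17 reads and was 13.0-fold (4.69 to 50.2) and 4.50-fold (1.47 to 18.4) higher in TRP1low. Trdj2 had 10, 3, 2 and 1 reads and had its highest level in TRP1high with K8.

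Trdv5 (4, 3, 15 and 11 reads) lies on the opposite strand with 207 of its 633 bases inside the annotated end of Trdc. Whether the counting used strand is not given in the sources used here, so reads of that overlap cannot be assigned to one of the 2 genes with certainty. Trdv4 had 0 or 1 read in each library, and Trdv2-1 had 9.19 estimated reads in TRP1low with K8 and 0 in the others. The 12 tested delta locus genes include V genes shared with the alpha chain, such as Trav21-dv12 (2, 0, 36 and 34 reads) and Trav6-7-dv9 (11, 0, 18 and 29). Of the 12, 6 were called lower in TRP1high with both peptides and 0 higher, with medians of -1.72 with K8 and -1.34 with M9. With K8 alone 7 were called lower and 1 higher, Trav15-2-dv6-2 (22, 4, 0 and 9 reads), against 8.35% and 10.6% of all genes. Of 7 tested gamma locus genes 3 were called higher with both peptides and 0 lower, and these are the 3 constant genes. Over all genes 3.24% were called higher and 2.29% lower in TRP1high with both peptides. Since low genes can pass the filter only through the library where they are high, these counts describe the loci and are no test.

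**Figure D4:**
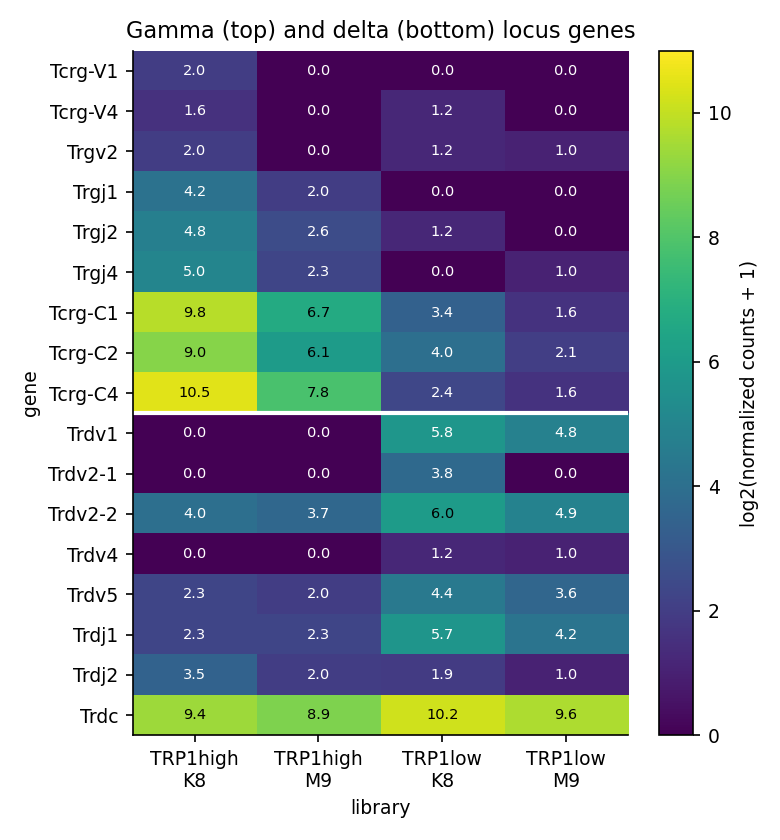
Level of each measured gamma locus gene (top 9) and of each measured Trdv, Trdj and Trdc gene (bottom 8) in the 4 libraries, as log2(normalized counts + 1), printed in each cell. Gamma J and C genes are brightest in TRP1high with K8, each gamma V gene has at most 3 reads, and Trdv1, Trdv2-2 and Trdj1 are brighter in TRP1low.

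Markers of gamma delta T cells were divided between the receptors. Of 20 listed symbols of identity genes, 15 had a row. With K8, 3 were called higher and 4 lower in TRP1high, with M9 1 was higher and 2 lower, and 0 were called in 1 direction with both peptides. The shares over all genes, higher and then lower, were 10.6% and 8.35% with K8 and 7.37% and 5.58% with M9. In the same library order the list summed to 2105, 2346, 3428 and 2544 normalized counts, of which Id3, a transcription regulator that conventional CD8 T cells also express, held 72.7% to 85.1%. Without Id3, Cxcr6 and Etv5, a choice made after the values were seen, the other 12 summed to 257.9, 130.7, 307.2 and 152.3. Sox13, a transcription factor of gamma delta cells, had 16.1, 18.9, 26.8 and 26.3 reads. The scavenger receptor genes Cd163l1 (46.9, 5, 8.5 and 0 reads) and 5830411N06Rik (57.6, 13.8, 10.9 and 7.3), both known from gamma delta cells, were highest in TRP1high with K8, as the gamma constant genes were. With K8 they were 4.01-fold (1.85 to 8.85) and 3.85-fold (1.9998 to 8.13) higher in TRP1high, against 34.0-fold to 352-fold for the constant genes. The part of gamma delta cells in the constant gene values was not tested.

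With M9 against K8, 7 of the 15 identity genes were called lower and 1 higher in TRP1high, and 4 lower and 0 higher in TRP1low. Among all genes 4.73% were called lower and 5.14% higher in TRP1high, and 7.43% and 7.67% in TRP1low. Cd163l1, Tmem176b and Cxcr6, a chemokine receptor, were called lower in both receptors, against 1.57% of all genes. The median differences of the identity genes were -1.09 in TRP1high and -0.75 in TRP1low.

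B cell transcript, which the co-culture could leave behind, moved with the peptide and with the gamma constant genes in TRP1high. The 12 B cell markers summed to 2041, 160.3, 1398 and 393 normalized counts in the library order used above. With M9, 12 of 12 were called lower in TRP1high, where Pax5 and Cr2 were among those at 0, and 6 were called lower and 2 higher in TRP1low, where Cr2 was at 0. Among all genes 4.73% were called lower and 5.14% higher with M9 in TRP1high, and 7.43% and 7.67% in TRP1low. The B cell sum was 12.7-fold lower with M9 in TRP1high, where the gamma constant sum was 7.23-fold lower (6.51 to 8.04), and 3.56-fold lower in TRP1low, where the gamma constant sum was 3.91-fold lower (1.602 to 10.9). The part of B cell transcript in the peptide difference was not tested. Between receptors, 6 B cell markers were called higher and 1 lower in TRP1high with K8, and 1 higher and 9 lower with M9. The shares over all genes were 10.6% higher and 8.35% lower with K8, and 7.37% and 5.58% with M9. The B cell markers differed widely among themselves: with K8, Pax5, a B lineage transcription factor, was 55.7-fold (26.9 to 140) and Cd22 46.9-fold (15.3 to 223) higher in TRP1high, while Spib was 7.36-fold (5.32 to 10.3) and Igkc 1.18-fold (1.03 to 1.36) lower. With K8 the B cell sum differed by 1.46-fold and the gamma constant sum by 99.8-fold (65.2 to 161), and with M9 the B cell sum was 2.45-fold lower in TRP1high while the gamma constant sum was 54.0-fold higher (26.0 to 135).

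**Figure D5:**
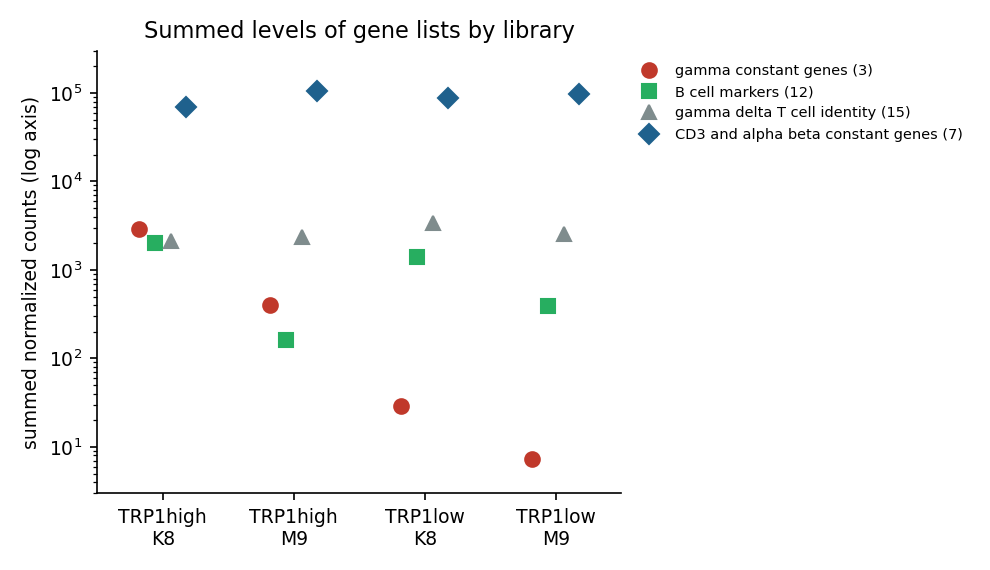
Summed normalized counts (log axis) of the 3 gamma constant genes, 12 B cell markers, 15 gamma delta identity genes and 7 CD3 and alpha beta constant genes in each library, 1 point per list and library. The gamma sums run from 2867 to 7.34, the B cell sum is lowest in TRP1high with M9 (160.3), and each of the other lists differs by at most 1.63-fold.

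Of 8 measured NK cell markers, 0 were called higher and 2 lower in TRP1high with K8, 2 higher and 1 lower with M9, and 0 in 1 direction with both. With M9 against K8, 2 were higher and 2 lower in TRP1high, and 0 higher and 2 lower in TRP1low. Klrb1c, which encodes NK1.1, had 11.3, 0, 6.7 and 1.1 reads. Of 8 measured myeloid and dendritic cell markers, 5 were called lower and 0 higher in TRP1high with K8, and 1 each way with M9, with Flt3 lower in both. With M9 against K8, 1 was called each way in TRP1high and 4 lower and 0 higher in TRP1low, with Lyz2 lower in both. Over all genes, the shares higher and lower in TRP1high were 10.6% and 8.35% with K8 and 7.37% and 5.58% with M9. Those higher and lower with M9 were 5.14% and 4.73% in TRP1high and 7.67% and 7.43% in TRP1low. The NK list summed to 2202 to 2886 normalized counts, of which Eomes and Klrd1, which activated CD8 T cells also express, held 96.6% to 99.2%, and the other 6 markers summed to 27.7, 51.6, 97.3 and 19.8. The myeloid list summed to 1847 to 3302, of which the widely expressed Cst3 held 90.6% to 98.4%, and the other 7 summed to 42.5, 71.0, 228.4 and 48.8. Lyz2, the lysozyme of myeloid cells, had 11, 2, 33 and 2 reads, and Siglech, a marker of plasmacytoid dendritic cells, had 1.4, 0, 22.9 and 0. Lyz2 was lower with M9 in each receptor and Siglech in TRP1low, and the part of NK and myeloid cells in the constant gene values was not tested. Of 4 CD4 T cell markers, 2 were called higher and 2 lower in TRP1high with K8, and 0 higher and 1 lower with M9. In the library order used above the 4 markers summed to 84.1, 119.1, 45.7 and 136.7 normalized counts. Cd4 itself was called lower in TRP1high with both peptides, at 2.1, 0, 18.6 and 17.4 reads.

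Of 26 measured genes known to act on the gamma locus, 4 were called higher and 3 lower in TRP1high with K8, 1 higher and 2 lower with M9, and 1 each way with both peptides, and the list's medians were -0.25 with K8 and 0.10 with M9. Over all genes 10.6% and 8.35% were called higher and lower with K8, 7.37% and 5.58% with M9, and 3.24% and 2.29% with both. Runx3, a transcription factor of the CD8 lineage, stood at log2 11.53, 11.34, 9.73 and 10.24 in the library order used above, and was 3.49-fold (3.20 to 3.81) and 2.14-fold (1.992 to 2.29) higher in TRP1high. Id2, an inhibitor of E proteins, stood at log2 9.79, 8.13, 10.91 and 9.51, and was 2.18-fold (1.998 to 2.37) and 2.60-fold (2.26 to 2.998) lower in TRP1high. Il7r, the interleukin 7 receptor chain whose signal through STAT5 opens the gamma locus in developing T cells, stood at log2 9.90, 9.05, 11.28 and 9.28. Il2ra, another receptor chain of the list, stood at log2 15.16, 14.95, 12.35 and 14.60. Il7r was thus highest and Il2ra lowest in TRP1low with K8. The part of these genes in the constant gene values was not tested. Stat5a and Stat5b stood between log2 10.996 and 12.19 in all libraries. With M9, Id2 and Runx1 were called lower in both receptors and 0 genes of the list higher, against 1.57% and 1.58% of all genes.

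The receptor constant genes and CD3 chains of the alpha beta receptor showed 1 call shared by both peptides out of 7, namely lower Trbc1 in TRP1high, and 0 calls with the peptide. Over all genes 2.29% were called lower in TRP1high with both peptides. Trac, which shares its locus with Trdc, stood at log2 13.69, 14.08, 12.95 and 13.18, the opposite order to Trdc between the receptors and between the peptides. Dntt, the terminal transferase that adds bases at V(D)J junctions, stood at log2 6.99, 4.97, 9.40 and 6.74. It was 5.35-fold (4.39 to 6.54) and 3.49-fold (2.29 to 5.35) lower in TRP1high, and 4.17-fold (2.77 to 6.33) and 6.39-fold (5.15 to 7.997) lower with M9 in TRP1high and TRP1low. Ptcra, the pre-TCR alpha chain, stood at log2 4.07 to 4.90 throughout.

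The genes whose profile over the 4 libraries was most like each member were taken from 12850 others with a mean of at least 10 normalized counts, by the root mean square difference of centred log2 values, with values under 3 reads raised to 3 reads. For Tcrg-C1 the nearest were Tcrg-C2 (0.57), Tcrg-C4 (0.81), Cd22 (0.96), Nt5e (1.003) and Per2 (1.08). For Tcrg-C2 they were Tcrg-C1 (0.57), Cd22 (0.69), Nt5e (0.71), Per2 (0.84) and the unnamed gene model Gm35106 (0.92). Cd22, an inhibitory lectin of B cells, stood at log2 7.55, 4.43, 2.31 and 1.80, Nt5e, the ecto-nucleotidase CD73, at 8.21, 6.605, 3.86 and 3.14, and the clock gene Per2 at 9.53, 7.20, 4.61 and 4.68. Only 3 genes lay within 1 of Tcrg-C1 and 5 within 1 of Tcrg-C2.

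For Trdc the nearest were Dbt (0.02), Celf1 (0.03), Srr (0.03), Ubxn2b (0.04) and Kpna4 (0.04). Within 0.1 of Trdc lay 63 genes, and 10978 lay within 1. The measure is not scaled for the size of the differences. A gene with small differences, such as Trdc, therefore lies near many genes, and the gamma constant genes, picked for large differences, near few. These counts do not compare likeness between the members.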

How the data were processed

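Total RNA of sorted T cells was sequenced in 4 libraries, 1 per combination of TCR and peptide, grouped by the sample titles. The deposited values are log2 of normalized counts, per the file headers, with genes given by symbol. The submitters' processing notes list Salmon 0.8.2, DESeq2 1.20.0 and mm10, without settings. The smallest value was 0. After the logarithm was undone and 1 taken away, many low values were multiples of 1 step per library, so that step (0.998, 0.989, 1.37 and 1.05 normalized counts) was read as the worth of 1 read and gave estimated reads. Only 56.2% to 56.4% of values up to 50 lay within 0.01 of a whole read, so no count model was fitted. The 2 rows of 1 repeated name were left out, and 16100 genes averaging 1 or more normalized counts were tested. Ratios have 95% Clopper-Pearson intervals on rounded reads, which carry no molecular identifiers. The peptide was tested over both receptors with limma 3.58.1 in R 4.3.3 (eBayes, trend off) and Benjamini-Hochberg adjustment at 0.05. Scripts were tested on simulated data. Gene positions, lengths and sequences are from GENCODE M21.

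The members and gene lists were chosen with earlier results of these data known. Named are the members, the measured gamma locus genes, the measured Trdv and Trdj genes, and some of the V genes shared with the alpha chain. Also named are some list genes called in 1 direction in both pairs of a comparison (up to 6 a list) or defining for a list. The 5 genes most like each member are named too. Sox13, 5830411N06Rik, Klrb1c, Siglech, Igkc, Eomes, Klrd1, Cst3, Il7r, Il2ra, Stat5a, Stat5b and Ptcra were added for their known roles after their values were seen. Alternatives were other added constants, library scalings, a floor of 3 reads, other filters and a trended eBayes. Some genes of the lists and some sequence are not reported here.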

Additional observations from a re-analysis of the deposited data

Results flagged for a closer look

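Among the genes of the marker lists reported here, the peptide difference of Ebf1 and of Zbtb46 went in opposite directions in the 2 receptors, at least 2-fold in each on the log2(value + 1) scale. The differences between receptors were not tested, since each group has 1 library. With M9 against K8 the B cell gene Ebf1 differed by -4.06 in TRP1high and 2.63 in TRP1low. Zbtb46, a gene of dendritic cells, differed by 1.38 in TRP1high and -1.99 in TRP1low. Of the gamma and delta constant genes, 0 showed opposite directions.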

How the results depend on the processing

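The directions of all receptor and peptide differences of Tcrg-C1, Tcrg-C2 and Trdc held under each of the 6 alternatives run on them (added constants of 0.5 and 5, 3 library scalings and the floor of 3 reads). Scaling to the CD3 genes moved 7 values beyond counting error, since the CD3 level lay -0.11, 0.45, -0.27 and -0.07 (log2) from its mean in TRP1high with K8 and M9 and TRP1low with K8 and M9 and every gene shifts by that amount: M9 against K8 in TRP1high became -3.67 for Tcrg-C1, -3.52 for Tcrg-C2 and -1.11 for Trdc, M9 against K8 in TRP1low became -0.77 for Trdc, and TRP1high against TRP1low became -0.96 (K8) and -1.30 (M9) for Trdc. The Trdc peptide difference in TRP1high minus that in TRP1low went from 0.03 to -0.34. With a constant of 5, the Tcrg-C1 difference in TRP1low with M9 against K8 was nearest to 0 (-1.04). The limma adjusted p over 10 fits ran from 0.18 to 0.64 for Tcrg-C1, 0.15 to 0.64 for Tcrg-C2 and 0.37 to 0.65 for Trdc. With at least 50 normalized counts, the counts of genes higher and lower in TRP1high were 1126 and 789 for K8 and 703 and 463 for M9, and those higher and lower with M9 were 427 and 341 in TRP1high and 686 and 652 in TRP1low. At 4-fold they were 629 and 569, 336 and 342, 275 and 284, and 454 and 491. Both changes call fewer genes by construction. Depth limits the gamma constant genes in TRP1low, where each had 2 to 11 reads.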
